A study of Homo sapiens with 38 samples.

Results

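The mitochondrial ribosomal protein genes are the nuclear genes named MRPL for the large subunit and MRPS for the small subunit of the ribosome inside mitochondria. They were chosen by name alone, as every unique entry whose symbol is MRPL or MRPS followed by a number and at most the letter A, B or C. There were 76 of them, 47 MRPL and 29 MRPS, among 25504 genes with a unique name. An antisense RNA and 2 pseudogenes whose names also begin with MRPL (MRPL23-AS1, MRPL42P5 and MRPL45P2) were outside the rule. So was MRP63, which is counted below among the ribosomal subunits that carry other names. RNA came from RKO cells, an established line of human colorectal cancer, under 8 conditions, each with a single library. The cells were kept for 30 days or for 4 days with vehicle (DMSO), with NCD38, or with 1 of its conjugates, NCD38-β2P4 and NCD38-β2PIPP. Values of 4 libraries below stand in the order vehicle, NCD38, NCD38-β2P4, NCD38-β2PIPP. NCD38 inhibits LSD1, an enzyme that removes methyl groups from lysine 4 of histone H3. In the conjugates NCD38 is linked to a pyrrole-imidazole polyamide that recognizes a short DNA sequence, 6 bases of A or T for NCD38-β2P4 and CG between pairs of A or T for NCD38-β2PIPP. The labels give a dose of 2 μM with 0.1% DMSO on both days, whereas the methods give 2 mM for the collection on day 4. All groups are the same line with no engineered allele, and no label or method ties a library to a replicate culture.

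Mitochondrial ribosomes translate the few messenger RNAs that mitochondrial DNA encodes, which are core subunits of the respiratory chain and of ATP synthase. The ribosomal RNAs come from mitochondrial DNA, but every ribosomal protein is encoded in the nucleus, made in the cytosol and imported. Some of these proteins have a bacterial counterpart and others were gained by mitochondria. Loss of single members causes inherited disorders of combined respiratory chain deficiency.

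Values are FPKM, fragments normalized to exon length and to the number of mapped fragments, so that levels may be compared between genes. The depth estimated from the FPKM of single fragments was between 12500000 and 23000000 fragments per library. All 76 members passed the filter for expressed genes, set at 1 for the mean FPKM of all 8 libraries, which 10865 genes passed. Between libraries of the same day, Spearman's correlation over the 76 members was between 0.936 and 0.991, and between libraries of different days it was between 0.627 and 0.813. The line was checked against its markers. KRT18 was between 76.2 and 121 FPKM, KRT8 between 6.58 and 19.0 and the intestinal factor CDX2 between 7.48 and 11.6. EPCAM was between 0.0922 and 6.53, whereas KRT19, CDH1, VIL1, CDH17 and LGR5 stayed under 1 in every library. The 9 markers of blood, endothelium, fibroblasts and liver summed to at most 0.0801 FPKM.

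The summed FPKM of the 76 genes was similar on both days. On day 30 the sums were 6649, 6242, 6702 and 6558. On day 4 they were 6201, 6768, 5598 and 5445. The ranges overlapped, and the members held between 0.753% and 0.845% of all FPKM in every library. The MRPL genes summed to between 3408 and 4310 FPKM and the MRPS genes to between 2037 and 2636.

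Single genes of the family were far from equal. MRPL41, a large-subunit protein that bacteria lack, had the highest mean level. Its FPKM was 760, 687, 670 and 718 on day 30 and 708, 893, 554 and 521 on day 4. Its values of both days overlapped. MRPS21, the counterpart of bacterial S21, came next. It was at 972, 759, 868 and 902 FPKM on day 30 and at 242, 219, 216 and 254 on day 4, so its lowest value on day 30 was well above its highest on day 4. MRPS2, MRPS24 and MRPS26 completed the 5 highest means. On day 30 the highest and second highest member together held between 22.9% and 26% of the summed FPKM, and on day 4 between 15.7% and 20.6%. The 5 lowest means were those of MRPL1, MRPL19, MRPL42, MRPS14 and MRPS25. On day 30 the lowest member was MRPS14, an S14 counterpart, at 6.24 to 8.18 FPKM. On day 4 it was MRPL1, the protein of the mobile L1 stalk, at 0.0918 to 1.02.

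**Figure D1:**
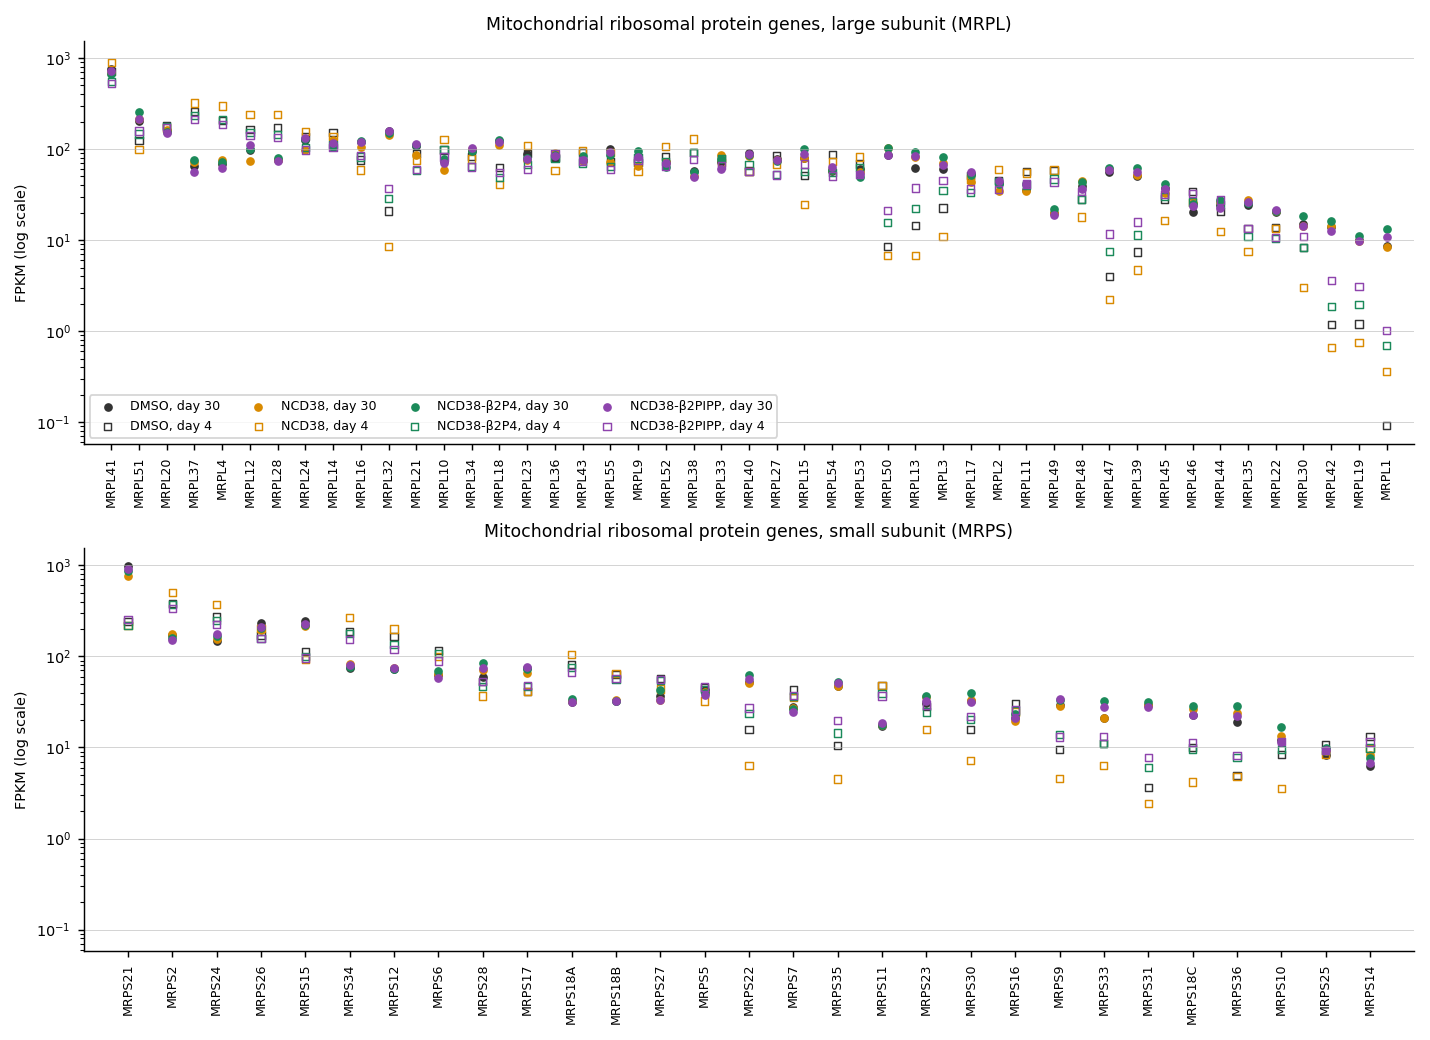
FPKM of each of the 76 genes in the 8 libraries on a log axis, MRPL above and MRPS below, ordered by mean level. Markers are filled circles for day 30 and open squares for day 4. Filled circles lie close together for most genes, whereas open squares spread, down to 0.0918 FPKM for MRPL1 with DMSO.

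The levels were more alike between treatments on day 30 than on day 4. The ratio of the highest to the lowest of the 4 libraries had a median over members of 1.2 on day 30 and 1.6 on day 4, and it was larger on day 4 for 70 of 76. Over all expressed genes these medians were 1.34 and 1.85. The widest ratio was 1.58 on day 30 and 11.1 on day 4, both for MRPL1. For MRPL1 the FPKM of 0.0918 with DMSO on day 4 corresponds to an estimated 1.91 fragments, so that value is little more than a detection.

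The largest differences in the family lay between the days. The fit was limma on log2(FPKM + 1) with treatment and day as terms over all 8 libraries, 2-sided, with Benjamini-Hochberg adjustment over 10865 genes, and a gene was called at an adjusted p under 0.05. Of the 76 members, 33 were called higher on day 30, 18 lower and 25 in neither direction. Over all expressed genes 30.2% were called higher and 31.7% lower. The median difference of the members, day 30 minus day 4, was 0.28 on the log2 scale against -0.02 for all expressed genes. All 4 libraries of day 30 lay above all 4 of day 4 for 33 members and below them for 20, where the shares over all expressed genes were 29.5% and 33.1%. The difference was at least 2-fold for 22 of the members called higher and for 9 of those called lower. The 4 libraries of a day are 4 treatments and not replicates, so the test measures whether the day differed alike in all of them. Day, time in culture and any sequencing run cannot be told apart.

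The 5 largest rises were those of MRPL47, MRPL50, MRPL1, MRPL32 and MRPL42. MRPL47, the counterpart of bacterial L29 at the rim of the exit tunnel, had an FPKM of 56.6, 60.2, 61.8 and 59.5 on day 30. On day 4 it was at 4.01, 2.21, 7.49 and 11.7. The difference was 3.23 ± 0.34 (log2, SE) with an adjusted p of 0.00097, and every day 30 value was more than the highest of day 4. MRPL50, which bacteria lack, was at 85.9, 102, 103 and 85.5 FPKM on day 30 and at 8.5, 6.84, 15.5 and 21.3 on day 4. It rose by 2.88 ± 0.30 with an adjusted p of 0.00095. MRPL32, a precursor that the mitochondrial m-AAA protease must cleave before it joins the ribosome, was at 158, 143, 149 and 159 FPKM on day 30 and at 20.9, 8.49, 28.4 and 37.1 on day 4. It rose by 2.80 ± 0.32 with an adjusted p of 0.0012. MRPL1 and MRPL42 rose by 2.88 and 2.53 from low levels. In the small subunit the largest rises were 2.45 for MRPS31, 2.08 for MRPS35 and 1.90 for MRPS21.

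The 5 largest falls were those of MRPL37, MRPL4, MRPL49, MRPS18A and MRPS34. MRPL37, a mitochondria-specific protein, was at 65.5, 71.9, 75.5 and 56.4 FPKM on day 30. On day 4 it was at 260, 320, 234 and 210. The difference was -1.90 ± 0.12 (log2, SE) with an adjusted p of 0.00041, and the 2 sets of values were far apart. MRPL4, whose bacterial counterpart reaches into the exit tunnel, was at 69.2, 76, 72.2 and 62.4 FPKM on day 30 and at 204, 297, 211 and 186 on day 4. It fell by 1.65 on the log2 scale with an adjusted p of 0.00048. MRPL49 and MRPS34, both without a bacterial counterpart, fell by 1.31 and 1.29.

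**Figure D2:**
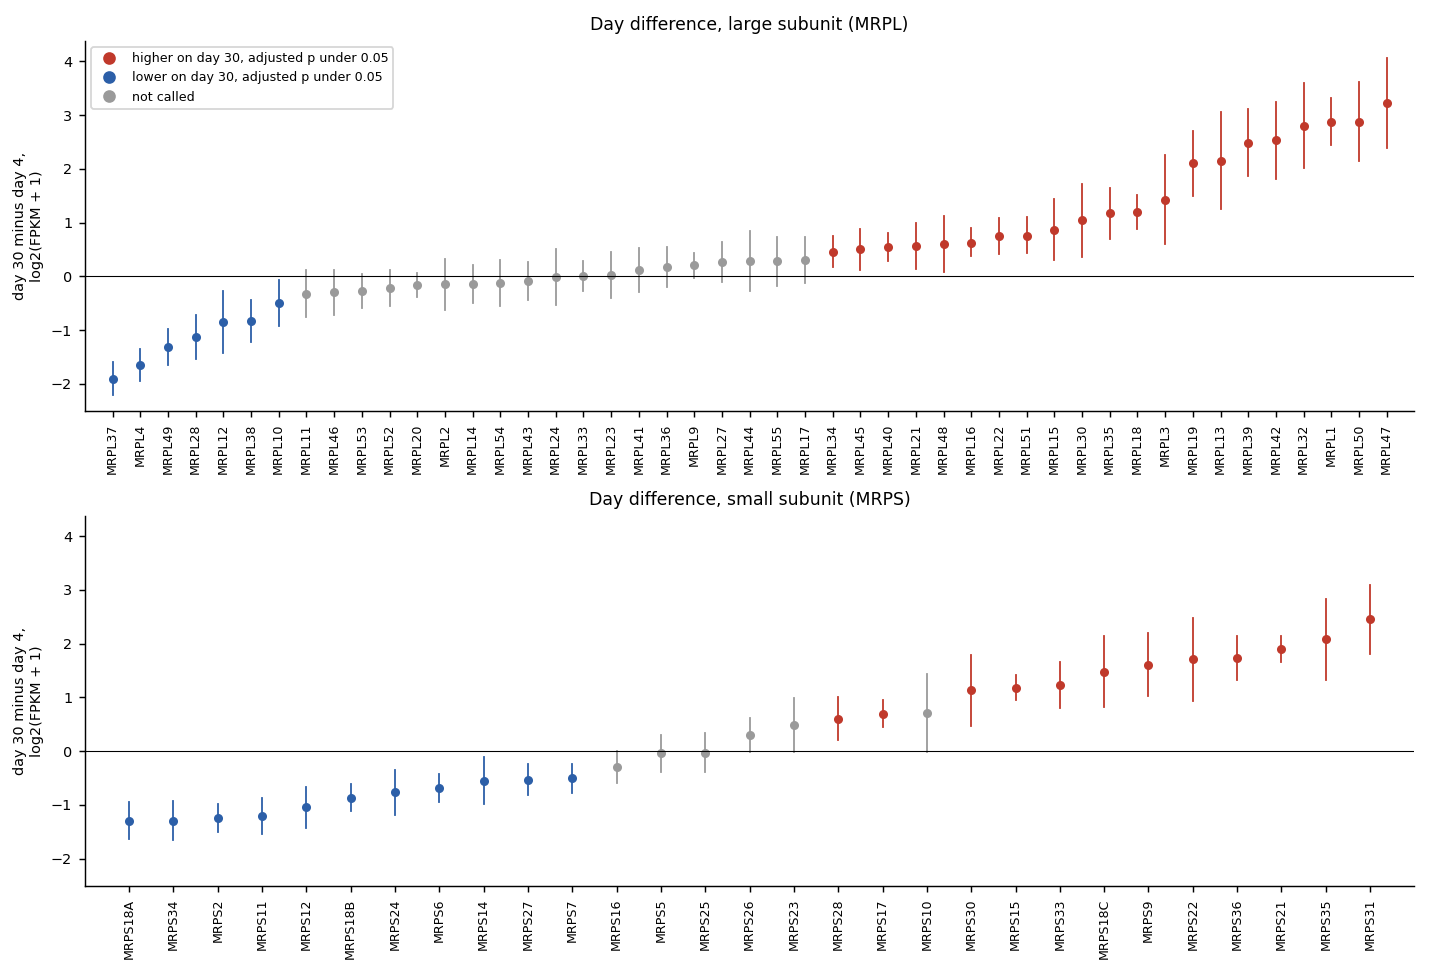
Difference between day 30 and day 4 in log2(FPKM + 1) for each gene, with its 95% confidence interval from limma. MRPL genes are above and MRPS genes below. Red marks genes called higher on day 30, blue genes called lower and grey genes not called, and values run from -1.90 for MRPL37 to 3.23 for MRPL47.

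The subunits were described apart. Of 47 MRPL genes 21 were called higher on day 30 and 7 lower, with a median difference of 0.28. Of 29 MRPS genes 12 were called higher and 11 lower, with a median of 0.30. As shares these were 44.7% and 14.9% for MRPL and 41.4% and 37.9% for MRPS. Among all expressed genes 30.2% were called higher and 31.7% lower. The division is by name and need not follow position in the ribosome. MRPS18A and MRPS36, both described below, are counted under MRPS. The division was not tested.

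Day 30 and day 4 libraries also differed by GC content of the transcripts. Over the 76 members Spearman's correlation between the day difference and the GC content of the matched GENCODE transcript was -0.74, and over 10184 expressed genes with a matched transcript it was -0.68. Of the 25 members with the lowest GC content (34.8% to 44.5%), 20 were called higher and 1 lower, with a median difference of 1.61. Of the 25 with the highest (53.0% to 66.7%), 2 were called higher and 12 lower, with a median of -0.27. When the trend with GC content over all expressed genes was subtracted from each library, 38 members were called higher and 13 lower, against 28.1% and 27.8% of the genes tested, and the median difference was 0.38. The call stayed the same for 25 of the 33 members called higher and for 11 of the 18 called lower, and none moved to the opposite call. The subunits then read differently. Of the MRPL genes 29 were called higher and 4 lower, with a median of 0.52, and of the MRPS genes 9 were called higher and 9 lower, with a median of -0.09. MRPL47, MRPL50, MRPL1, MRPL32 and MRPL42 remained higher, at 1.80, 1.30, 1.30, 2.11 and 1.11, and MRPL37, MRPL4, MRPL49, MRPS18A and MRPS34 remained lower, at -1.27, -0.85, -0.72, -0.58 and -0.50. MRPS21 was at 2.01 and MRPS15, an S15 counterpart, at 1.77. MRPL41 was at 0.79 and called higher, which it was not before. MRPS14 and MRPL33, with GC contents of 39.9% and 41.3%, were called lower at -1.76 and -1.11. Whether the trend arises in the libraries or in the cells was not tested.

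MRPS18 is the only name in the family with 3 paralogues. Mammals carry MRPS18A, MRPS18B and MRPS18C, which descend from bacterial S18. MRPS18C occupies the S18 position in the small subunit, MRPS18B another site of the small subunit and MRPS18A, despite its name, sits in the large subunit. MRPS18A (chromosome 6 of GRCh37, 43638939 to 43655528, minus strand, 6 exons) was at 31.5, 32.3, 34.2 and 31.7 FPKM on day 30 and at 80.7, 105, 75.9 and 66.0 on day 4. MRPS18B (chromosome 6, 30585617 to 30594169, plus strand, 7 exons) was at 32.6, 33.1, 32.3 and 32.3 FPKM on day 30 and at 63.7, 65.3, 55.5 and 56.9 on day 4. Both fell without overlap, by 1.29 with an adjusted p of 0.0011 and by 0.87 with an adjusted p of 0.0014. MRPS18C (chromosome 4, 84377211 to 84383451, plus strand, 6 exons) was at 22.6, 26.3, 28.3 and 22.7 FPKM on day 30 and at 9.93, 4.18, 9.51 and 11.3 on day 4. It rose by 1.48 ± 0.27 with an adjusted p of 0.0053, but with the GC trend subtracted its difference was -0.10 with an adjusted p of 0.61. The GC contents of the transcripts were 57.3%, 51.9% and 36.8% for MRPS18A, MRPS18B and MRPS18C. On day 4 the FPKM of MRPS18A was thus at the top of the trio and that of MRPS18C at the bottom, while on day 30 the means were 32.4, 32.6 and 25.

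**Figure D3:**
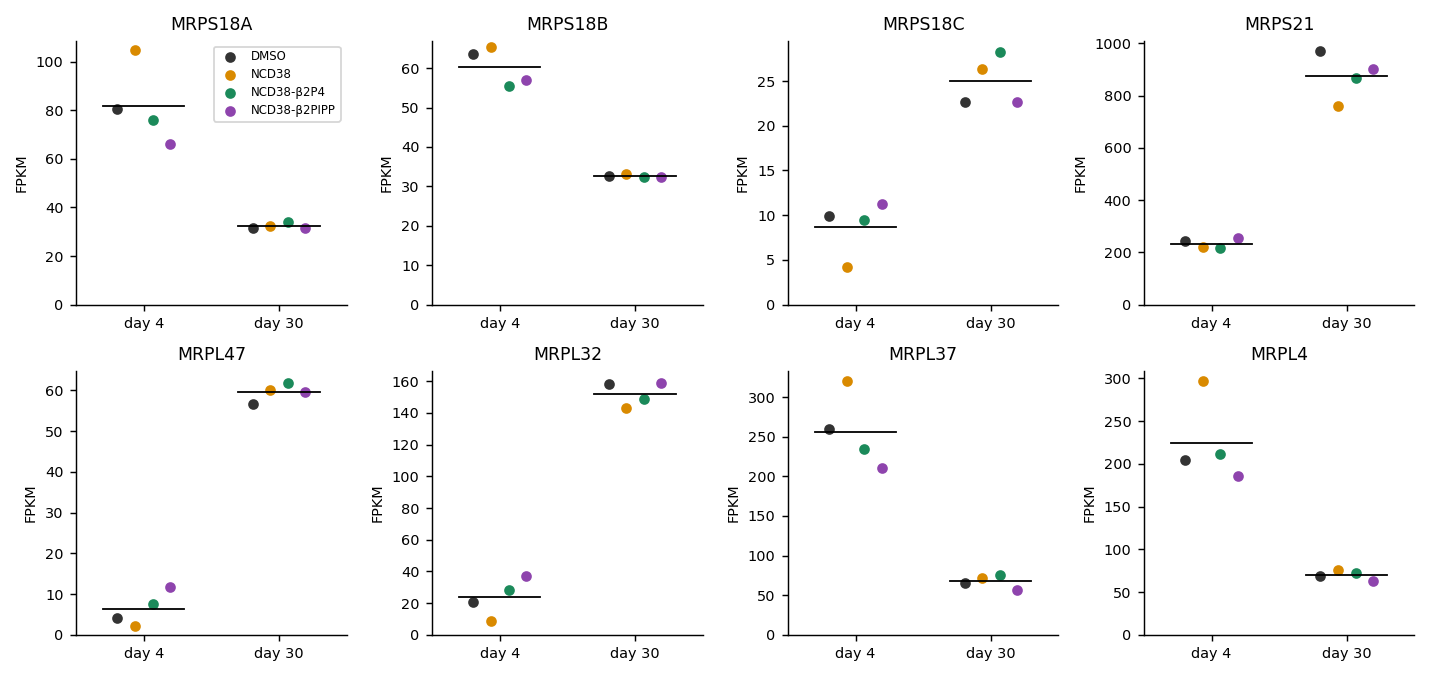
FPKM of 8 genes on day 4 and day 30, 1 point per library colored by treatment, with a black line at the mean of the 4 libraries and axes from 0. MRPS18C, MRPS21, MRPL47 and MRPL32 were higher on day 30 and MRPS18A, MRPS18B, MRPL37 and MRPL4 lower, with no overlap between days in any panel.

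Members of known position were followed next. The stalk that recruits translation factors is built from MRPL12, held by MRPL10 on the base formed by MRPL11. MRPL12 was at 98, 73.7, 100 and 110 FPKM on day 30 and at 165, 239, 153 and 142 on day 4. It fell by 0.85 with an adjusted p of 0.023. The call was lost without either DMSO library (-0.89, adjusted p 0.074 and 0.076) or either NCD38-β2P4 library (-0.93, 0.059 and 0.061) and with libraries scaled to one median (-0.96, 0.051), where the difference was no smaller, and with the GC trend subtracted (-0.06, 0.79). MRPL10 fell by 0.50 with an adjusted p of 0.047, a call lost without any 1 of the DMSO, NCD38-β2P4 or NCD38-β2PIPP libraries (-0.54 to -0.60, adjusted p 0.056 to 0.12), with libraries scaled to one median (-0.62, 0.11), with no filter (-0.50, 0.071) and with no intensity trend (-0.50, 0.063). In these its difference was no smaller, whereas it was 0.09 with the GC trend subtracted. MRPL11 had a difference of -0.32 with an adjusted p of 0.16.

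Among the decoding and platform proteins, MRPS12, the counterpart of the S12 protein that governs decoding accuracy, fell by 1.04 with an adjusted p of 0.0025. MRPS11 and MRPS7 fell by 1.21 and 0.50 with adjusted p of 0.0011 and 0.011, the latter lost without either DMSO library (0.071 and 0.076) or either NCD38-β2P4 library (0.053 and 0.056). MRPS5 had a difference of -0.04 with an adjusted p of 0.81. With the GC trend subtracted MRPS11 kept its call at -0.91, MRPS12 and MRPS7 were not called at -0.26 and -0.20, and MRPS5 was called lower at -0.73.

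In the large-subunit core, whose bacterial counterparts surround the peptidyl transferase centre, MRPL3 rose by 1.43 with an adjusted p of 0.013, which was 0.055 without either DMSO library, and it stayed called at 0.49 with the GC trend subtracted. MRPL2 had a difference of -0.15 with an adjusted p of 0.52, and 0.48 with an adjusted p of 0.075 when the GC trend was subtracted, and MRPL4 fell as given above. At the exit tunnel MRPL22 rose by 0.75 with an adjusted p of 0.0054, but its difference was -0.36 with the GC trend subtracted. MRPL23 and MRPL24 had differences of 0.02 and -0.02, and with the GC trend subtracted they were called higher, at 0.70 and 0.61. Of 3 further genes mutated in inherited mitochondrial translation disorders, MRPS22 rose by 1.71 with an adjusted p of 0.0052. It was at 51.9, 50.9, 61.7 and 56.0 FPKM on day 30 and at 15.7, 6.38, 23.7 and 27.1 on day 4. MRPS16 and MRPL44 had differences of -0.30 and 0.28 with adjusted p of 0.083 and 0.31. With the GC trend subtracted MRPS22 stayed called at 1.02, and MRPS16 and MRPL44 were not called at -0.30 and -0.12. MRPS36, which carries a ribosomal name but is now regarded as part of the 2-oxoglutarate dehydrogenase complex, rose by 1.74 with an adjusted p of 0.0008, and was at 0.16 with an adjusted p of 0.23 when the GC trend was subtracted.

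Of the 5 genes with the lowest means, MRPL19 rose by 2.10 with an adjusted p of 0.0013, at 9.67 to 11.2 FPKM on day 30 and 0.751 to 3.11 on day 4, and stayed called at 0.52 with the GC trend subtracted. MRPS14 fell by 0.55 with an adjusted p of 0.041, which was 0.10 to 0.21 without any 1 of the DMSO, NCD38-β2P4 or NCD38-β2PIPP libraries (-0.41 to -0.63) and 0.057 with no filter. MRPS25 had a difference of -0.03.

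Promoter sequences of RefSeq, on GRCh38.p14 with 250 bases before and 50 after the first listed start, were found for 67 of the 76 members. Binding motifs of NRF1, ETS factors such as GABP, and YY1 are known from promoters of nuclear genes for mitochondrial proteins, and they were searched on both strands. CCGGAAG, the ETS core, was found in 28 of 67 windows (41.8%), against 10.7% of all 27305 windows. AAGATGG, the YY1 core, was found in 23 (34.3%) against 6.06%, and GCATGCGC, part of the NRF1 site, in 6 (8.96%) against 3.27%. At least 1 of the 3 was in 43 windows (64.2%) against 18.2%. All windows include genes that RKO cells do not express. By call between the days, the ETS core was in 12 of 27 windows of members called higher, in 5 of 17 of those called lower and in 11 of 23 of those not called. The YY1 core was in 8, 8 and 7 of these. Matches may overlap each other. A match is a description of letters and no evidence of binding.

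The recognition sequences of the polyamides were counted in the same way. A run of 6 A or T was in 34 of 67 windows (50.7%), against 62.0% of all windows, and CG between pairs of A or T in 19 (28.4%), against 16.1%. The median GC content of the windows was 60.3% for members, between 43.3% and 82.0%, and 58.3% over all windows.

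The 120 bases before the start are given for the MRPS18 paralogues, whose day differences had different directions, and for 3 members that show each motif, 2 with large rises and 1 with a large fall. Each stretch is from RefSeq on GRCh38.p14 and runs 5′ to 3′ on the strand of its gene, and capitals mark the NRF1, ETS or YY1 letters on either strand.
MRPS18A: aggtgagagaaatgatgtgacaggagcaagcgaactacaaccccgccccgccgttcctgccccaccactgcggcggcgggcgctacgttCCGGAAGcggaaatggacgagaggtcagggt
MRPS18B: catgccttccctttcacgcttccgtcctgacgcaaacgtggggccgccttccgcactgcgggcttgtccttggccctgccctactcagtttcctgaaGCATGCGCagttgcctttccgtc
MRPS18C: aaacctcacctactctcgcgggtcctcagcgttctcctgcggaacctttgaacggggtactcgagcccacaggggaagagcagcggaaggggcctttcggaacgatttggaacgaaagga
MRPL47: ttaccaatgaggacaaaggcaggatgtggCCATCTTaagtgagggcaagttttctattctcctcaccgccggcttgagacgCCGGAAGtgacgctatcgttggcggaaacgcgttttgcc
MRPL32: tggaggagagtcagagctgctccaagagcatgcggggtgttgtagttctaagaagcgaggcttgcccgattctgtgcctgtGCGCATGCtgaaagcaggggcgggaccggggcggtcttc
MRPS34: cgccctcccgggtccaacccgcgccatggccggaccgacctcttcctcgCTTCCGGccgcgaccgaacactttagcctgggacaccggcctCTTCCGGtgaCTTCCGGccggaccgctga
These stretches lie at chr6:43687792-43687911, chr6:30617720-30617839, chr4:83455938-83456057, chr3:179604639-179604758, chr7:42932256-42932375 and chr16:1773135-1773254 in the order given, those of MRPS18B, MRPS18C and MRPL32 on the plus strand and the others on the minus strand. MRPS34, which was lower on day 30, has 3 ETS cores, MRPL47, which was higher, has an ETS and a YY1 core, and MRPS18C has none of the 3 motifs there. No relation between these letters and the day differences was tested.

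Many members share a promoter region with a neighbour read in the opposite direction. For 24 of 76 (31.6%) another protein-coding gene starts within 1000 bases on the other strand in GENCODE on GRCh37, against 14.5% of 9665 expressed protein-coding genes. MRPL46 and MRPS11 are such a pair themselves, 320 bases apart. In 21 pairs both genes were expressed, and in 13 of these both were called between the days, 10 in the same direction (76.9%) and 3 in opposite directions. Over 601 pairs of expressed genes both were called in 251, of which 82.5% had the same direction. MRPL47 rose by 3.23 and its neighbour NDUFB5, a complex I subunit 156 bases away, by 0.89 with an adjusted p of 0.0087. MRPL32 rose together with the proteasome gene PSMA2 (1.45, adjusted p 0.03), and MRPS12 fell together with SARS2, the mitochondrial seryl-tRNA synthetase (-1.04, adjusted p 0.0019). In the opposite pairs MRPL51 rose by 0.76 while the condensin gene NCAPD2 fell by 2.12, MRPL40 rose by 0.55 while the histone chaperone gene HIRA fell by 0.99, and MRPL21 rose by 0.57 while IGHMBP2 fell by 0.91. The calls of MRPL40 and MRPL21 were lost when libraries were scaled to one median (adjusted p 0.088 and 0.20), and that of MRPL21 also without any 1 of the 6 libraries of DMSO, NCD38-β2P4 and NCD38-β2PIPP (0.056 to 0.13).

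Other entries can share reads with members. GENCODE names at least 1 pseudogene after 35 of the 76, among them 8 after MRPS21, 5 after MRPL42 and 5 after MRPS36. Of these 35, 21 were called higher on day 30 and 6 lower, and of the 41 without a named pseudogene 12 were called higher and 12 lower. Another protein-coding gene overlaps the span of 37 members, of which 11 were called higher and 16 lower. Of the 20 members with neither, 7 were called higher and 2 lower, with a median difference of 0.29. The shares over all expressed genes were 30.2% and 31.7%. GC content was not compared between these groups, and a link of copies or overlaps to the day differences was not tested. How reads from copies and overlaps were assigned is not given in the sources used here, so the levels of such genes are uncertain.

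The comparison the study was built on is inhibitor against DMSO. On day 30 the 76 genes were close to DMSO with all 3 inhibitors. With 1 library against 1 library there is no test, so log2 ratios of FPKM + 1 are described. NCD38 gave a median of 0.01, which was -0.06 with libraries scaled to one median and also with the GC trend subtracted, with 0 members at least 1.5-fold higher and 0 at least 1.5-fold lower, where 4% and 2.8% of all expressed genes were. The lowest ratios were -0.48 for MRPL55, from 99.9 FPKM with DMSO to 71.4 with NCD38, and -0.41 for MRPL12. The highest were 0.39 for MRPL13 and 0.34 for MRPS14. NCD38-β2P4 gave a median of 0.12 against 0.06 for all expressed genes. Its median was 0.04 with libraries scaled to one median and 0.03 with the GC trend subtracted. As log2 ratios of FPKM + 1, 55 of 76 members were above DMSO, a count not taken over all expressed genes. On this scale 1 member, MRPS33, was at least 1.5-fold higher (0.59, from 21.1 to 32.3 FPKM) and none was 1.5-fold lower, where 1.43% and 0.874% of all expressed genes were. MRPL1 followed at 0.56, from 8.62 to 13.2 FPKM. In FPKM with nothing added, both were 1.53-fold higher, so 2 members passed, against 3.56% of the genes above 0 in both libraries. The lowest ratios were -0.31 for MRPL53 and -0.21 for MRPL55. NCD38-β2PIPP gave a median of -0.01, with 0 members past 1.5-fold in either direction, against 1.72% higher and 0.911% lower over all expressed genes. Its highest ratios were 0.42 for MRPL13 and 0.37 for MRPS33, and its lowest -0.27 for MRPL33 and -0.21 for MRPL37. The 95% counting half-width of such a ratio had a median of 0.11 for day 30 and 0.14 for day 4 (log2), which covers counting error only and was computed from the estimated depth.

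On day 4 the same ratios were wider. With NCD38 19 members were at least 1.5-fold lower and 0 higher, a share of 25% against 22.5% of all expressed genes lower and 2.1% higher. The median was -0.26 against -0.21 for all expressed genes, and it was 0.13 when libraries were scaled to one median and 0.07 with the GC trend subtracted, so its sign rests on the scaling. MRPL32 went from 20.9 FPKM with DMSO to 8.49 with NCD38 and MRPL30 from 8.23 to 3.02, both a log2 ratio of -1.20. MRPL4 and MRPL12 were the highest at 0.54 and 0.53. In FPKM with nothing added 23 members were at least 1.5-fold lower with NCD38 and 1 higher. The shares were 38.4% and 2.97% of the genes above 0 in both libraries. With NCD38-β2P4 6 members were at least 1.5-fold higher and 4 lower, against 7.87% and 1.68% of all expressed genes. In FPKM with nothing added 11 were higher, against 19.9% of the genes above 0 in both libraries. With 1 added, MRPL50 and MRPL47 were the highest at 0.79 and 0.76, and MRPL27 and MRPL54 the lowest at -0.66 and -0.63. With NCD38-β2PIPP 13 were at least 1.5-fold higher and 2 lower, against 27.1% and 1.91%. In FPKM with nothing added 13 were higher and 3 lower, against 34.9% and 1.92%. With 1 added, MRPL47 and MRPL13 were the highest at 1.35 and 1.31, and MRPL54 and MRPL27 the lowest at -0.76 and -0.68. The medians with the conjugates were -0.07 and -0.12, below the 0.09 and 0.17 of all expressed genes.

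These ratios followed GC content too. Over the 76 members Spearman's correlation between the ratio and GC content on day 4 was 0.73 for NCD38, -0.54 for NCD38-β2P4 and -0.73 for NCD38-β2PIPP, and over 10184 expressed genes it was 0.59, -0.53 and -0.69. On day 30 it was -0.33, -0.60 and -0.27 over the members, and -0.17, -0.52 and -0.03 over the expressed genes. The 25 members of lowest GC content had medians of -0.64, 0.42 and 0.62 on day 4, and the 25 of highest GC content 0.30, -0.17 and -0.32. On day 4 the FPKM rose in the order NCD38, DMSO, NCD38-β2P4 and NCD38-β2PIPP for 20 members and fell in that order for 17. For all expressed genes the shares were 44.4% and 13%, and for the members 26.3% and 22.4%. Among members called higher on day 30, 18 of 33 rose in that order, and among those called lower 10 of 18 fell in it. The calls use the same day 4 values, and the order was not counted over all genes called in either direction. The part of GC content in these ratios was not tested.

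**Figure D4:**
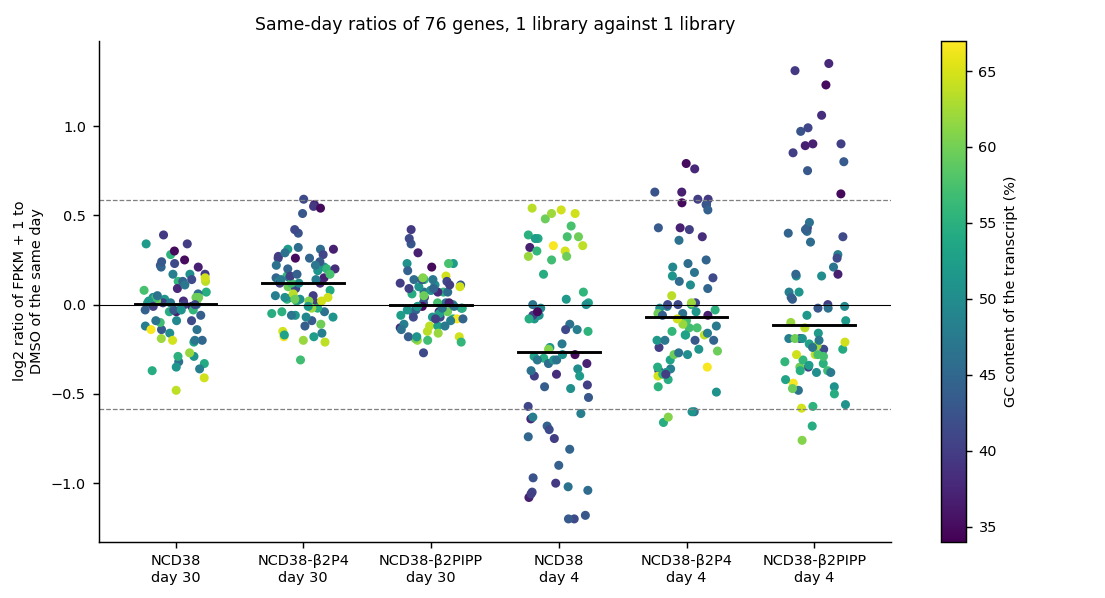
Log2 ratio of FPKM + 1 to the DMSO library of the same day for 76 genes under each inhibitor and day, 1 point per gene colored by GC content of the transcript, with a black line at the median and dashed lines at 1.5-fold. On day 4 the low GC genes lie at the bottom with NCD38 and at the top with both conjugates, whereas on day 30 nearly all points lie between the dashed lines.

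Over both days together no member was called for any inhibitor. With limma and the same fit, 0 of 76 were called for NCD38 against DMSO, 0 for NCD38-β2P4 and 0 for NCD38-β2PIPP, where 0.0368%, 0.0184% and 0.0184% of all expressed genes were. At an unadjusted p under 0.05 there were 0, 0 and 0 members as well, against 1.33%, 0.295% and 0.571% of all expressed genes. The medians were -0.11, 0.01 and -0.05. The 95% confidence interval of a single member's difference reached a median of 0.57 to either side on the log2 scale, between 0.32 and 1.28. These intervals are not adjusted for the number of genes, so a call needed a difference beyond them. MRPL13 with NCD38-β2PIPP, at 0.86, was not called (adjusted p 0.98 by limma). The nearest to a call were MRPL9 with NCD38, at -0.33 (95% confidence interval -0.66 to 0.00, unadjusted p 0.05), and MRPL1 with NCD38-β2P4, at 0.60 (-0.01 to 1.20), and with NCD38-β2PIPP, at 0.59 (-0.02 to 1.20), all with adjusted p from limma of 0.98 or more.

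The 3 compounds were then compared in pairs, at the same labelled dose and days, with p adjusted over all genes and the 3 pairs. No member was called between NCD38-β2P4 and NCD38, NCD38-β2PIPP and NCD38, or the conjugates, where 0.0092%, 0.0184% and 0.0276% of all expressed genes were. At an unadjusted p under 0.05 there were 3, 6 and 0 members, or 3.95% and 7.89% in the first pairs against 3.24% and 6.37% of all expressed genes. MRPL9, an L9 counterpart, was 0.51 higher with NCD38-β2P4 than with NCD38 (95% confidence interval 0.18 to 0.84, unadjusted p 0.01, adjusted p 0.87 by limma). MRPS33 was 0.65 higher (0.05 to 1.25) with NCD38-β2P4 and 0.66 higher (0.06 to 1.27) with NCD38-β2PIPP than with NCD38. MRPL4 was 0.48 lower with NCD38-β2PIPP than with NCD38, at -0.48 (-0.89 to -0.07). Between the conjugates, which differ by 1 imidazole in place of a pyrrole, the differences lay between -0.29 for MRPL13 and 0.31 for MRPL33 (95% confidence interval -0.09 to 0.71).

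The rest of the mitochondrial translation pathway was followed from fixed lists, between the days. For scale, 30.2% of all expressed genes were called higher and 31.7% lower. Of 7 ribosomal subunits that carry other names, 4 were called higher on day 30 and 1 lower. PTCD3, a small-subunit RNA-binding protein, rose by 1.20 and GADD45GIP1 by 0.64, whereas AURKAIP1 fell by 0.44. Of 11 translation factors 7 were called higher and 1 lower. The initiation factors MTIF2 and MTIF3 rose by 2.82 and 2.72 with adjusted p of 0.0011 and 0.0007, whereas TUFM, the elongation factor Tu, fell by 0.84 with an adjusted p of 0.0092. Of 16 assembly and ribosomal RNA maturation factors 3 were called higher and 8 lower. The helicase gene DHX30 fell by 1.69 with an adjusted p of 0.0004 and the ribosomal RNA chaperone gene ERAL1 by 1.15, while the GTPase gene GTPBP10 rose by 1.76. Of 8 genes of mitochondrial transcription and RNA 6 were called higher and 1 lower. LRPPRC and SLIRP, partners that stabilize mitochondrial messenger RNA, rose by 2.48 and 2.65, TFAM, which packages mitochondrial DNA, rose by 1.56, and POLRMT, the mitochondrial RNA polymerase, fell by 1.07. With the GC trend subtracted the counts of the 4 lists were 5 and 0, 3 and 0, 1 and 8, and 4 and 1. The shares of all genes tested in that fit were 28.1% and 27.8%.

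Of 7 expressed nuclear regulators, 1 was called higher and 2 lower, against 30.2% and 31.7% of all expressed genes. GABPA rose by 1.16 from at most 0.517 FPKM on day 4 to at most 2.25 on day 30, NRF1 fell by 1.04 and PPRC1, a PGC-1 related coactivator, by 0.60. YY1 and MYC had differences of 0.59 and -0.26 with adjusted p of 0.19 and 0.39. With the GC trend subtracted 2 of the 7 regulators were called higher and 3 lower, against 28.1% and 27.8% of the genes tested. The GC content of the GABPA transcript was 36.7%. The coactivator PPARGC1A was at 0 to 0.0107 FPKM, and PPARGC1B had a mean of 0.835.

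As an outside measure, 2 other families were set beside the members, 1 of the cytosolic ribosome and 1 of the respiratory chain. Of 83 expressed cytosolic ribosomal protein genes 48 were called higher on day 30 and 4 lower, with a median difference of 0.73 and a median FPKM of 3360 against 57.7 for the mitochondrial family. Of 37 complex I subunit genes 11 were called higher and 10 lower, with a median of 0.11 and a median FPKM of 150. With the GC trend subtracted the medians were 0.75, 0.39 and 0.38 for cytosolic ribosomal, complex I and mitochondrial ribosomal genes. Differences between the families were not tested.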

How the data were processed

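Poly(A) RNA of 8 RKO conditions was sequenced from stranded libraries. According to the methods, the authors aligned reads with TopHat and estimated gene levels with Cufflinks, and they deposited FPKM values. The submitters' processing notes also name HISAT2 2.2.1.0, BWA 0.5.9, bedtools 2.20.1 and hg19 without a role. The annotation and strand setting are not given in the sources used here. FPKM holds no counts, depth was estimated from single-fragment values, and counting half-widths rest on that estimate. Of 25594 entries, 90 with a repeated name were left out. Values were analysed as log2(FPKM + 1), which understates changes of low genes, for genes with a mean FPKM of at least 1. limma 3.58.1 (R 4.3.3), with an intensity trend, fitted day and treatment with 3 residual degrees of freedom, and the fit was tested on simulated data. With 1 library per condition, p-values measure only how treatments or days vary. Members were matched to GENCODE release 44 on GRCh37 for length, exons and GC content, and to RefSeq promoters. Tables were handled in Python 3.11.15 with pandas 2.3.3.

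Named members were 19 chosen by role, the 5 highest and lowest means, the 5 largest differences in each direction between days, and the 2 extremes of each same-day ratio. Genes outside this rule, and the divergent neighbours, were chosen after their values were seen. The members, lists and rules were chosen with earlier results of these data known. Alternatives changed the pseudocount, filter, scaling, GC trend, intensity trend, model terms, DMSO library and each library in turn. Ratios of FPKM with nothing added were chosen after seeing the data. ChIP-seq libraries were not analysed here.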

Additional observations from a re-analysis of the deposited data

Results flagged for a closer look

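The members' median log2 ratio to the DMSO library of the same day had opposite signs on the days for both NCD38 and NCD38-β2P4. With NCD38 it was 0.01 on day 30 and -0.26 on day 4. With NCD38-β2P4 it was 0.12 on day 30 and -0.07 on day 4. With libraries scaled to one median the NCD38 values were -0.06 and 0.13, and with the GC trend subtracted -0.06 and 0.07, so both signs turned. Those of NCD38-β2P4 were 0.04 and -0.21, and 0.03 and -0.16. Each value rests on 1 library against 1 library and the difference was not tested. Over all expressed genes the medians were 0.06 and -0.21 with NCD38, and 0.06 and 0.09 with NCD38-β2P4. With NCD38, 40 of 76 members had opposite signs on the days, 10 were higher on both and 20 lower on both. With NCD38-β2P4 these counts were 33, 23 and 17. Neither set of counts was taken over all expressed genes, so whether members differ from other genes in this was not tested. Signs were counted whatever the size of the value. For day 30 the median absolute size over members was 0.12 for NCD38 and 0.15 for NCD38-β2P4. The median counting half-width for that day was 0.11, so a sign there can rest on counting error.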

How the results depend on the processing

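A total of 1308 values were recomputed under alternatives. The count of members called between the days was 51 and stayed between 38 and 53 without 1 library, with 25 to 35 higher and 12 to 18 lower. The 12 arose without either DMSO library, and leaving out 1 library leaves its treatment with no day difference. Of 51 called members 36 kept the call without any 1 library. The inhibitor counts stayed at 0 in every fit to all 8 libraries. In a fit without 1 library, the treatment of that library rests on its library of the other day alone. Contrasts with that treatment were therefore not read in any such fit. With the vehicle library of the opposite day as comparator the medians were 0.22 for NCD38-β2P4 and 0.17 for NCD38-β2PIPP on day 30, and -0.33 and -0.23 on day 4. With libraries scaled to one median, the day 4 medians were 0.13 for NCD38, -0.21 for NCD38-β2P4 and -0.46 for NCD38-β2PIPP. With the GC trend subtracted they were 0.07 for NCD38 and -0.28 for NCD38-β2PIPP. That subtraction also turned the sign of 17 day differences. Of these 5 passed the threshold in neither fit, and the other 12 came to 0.09 for MRPL10, 0.48 for MRPL14, 0.31 for MRPL20, -0.36 for MRPL22, 0.61 for MRPL24, -1.11 for MRPL33, -0.05 for MRPL35, 0.54 for MRPL43, 0.45 for MRPL53, 0.58 for MRPL54, -0.10 for MRPS18C and -0.09 for MRPS28. The cause was not tested. The labels give no replicate numbers, and the day difference was already taken within each treatment. With treatment left out of the fit 53 members were called. Low levels limit MRPL1, MRPL19 and MRPL42 on day 4.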
